A study of Homo sapiens with 4 samples.

Results

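Antiviral interferon-stimulated genes were described in KM-H2, a Hodgkin lymphoma cell line, with and without knockdown of PTPN1. The group holds 41 genes listed by name as members of the antiviral interferon response, not by their values here. Earlier results of these data were known when they were chosen. All 41 had a measured probe set among the 19775 genes compared. RNA was profiled on 4 Affymetrix arrays, 2 of cells treated with small interfering RNA against PTPN1 (knockdown) and 2 of cells given non-silencing RNA (control). The series design calls the arrays of a group technical replicates, so SEs and p-values here measure the spread between arrays of this single line and not between cultures. In both groups RNA was labelled after an amplification of 2 cycles, and a change in RNA per cell cannot be told apart from a change in the mix of cells. The number of arrays limits the precision, and a two-sided exact permutation test of 2 against 2 arrays cannot go below p = 0.333.

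Cells that sense viral RNA or meet interferon transcribe a shared set of antiviral genes. Type I interferons act through a receptor bound to the kinases JAK1 and TYK2, which activate STAT proteins. These join IRF9 to form a factor that binds the interferon-stimulated response element (ISRE) in promoters. PTPN1 encodes a tyrosine phosphatase, and JAK2 and TYK2 are among its known substrates. The products include RNA sensors, the ubiquitin-like modifier ISG15 and its enzymes, proteins that block viral translation or entry, and poly-ADP-ribose polymerases of the interferon response.

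PTPN1 itself read 8.16 and 8.40 on the log2 scale in the control arrays and 7.002 and 7.363 after knockdown, a difference of -1.096 (SE 0.18). Over all genes it did not pass (limma adjusted p = 0.769), but it passed in a limma fit with the array number as a replicate block (adjusted p = 0.0251). Of 12 markers of Hodgkin cells, 12 had a mean over the 4 arrays at or above 5.11, the median of all probe sets. Their summed log2 values ranged from 101.9 to 104.5 in the control arrays and from 103.8 to 109.0 after knockdown. Between the groups 11 of the 12 lay above 0 (48.2% of all genes did), with a median difference of 0.25 (-0.0066 over all genes). The groups overlapped for 8 of the 12 and were apart for 4 (33.3%, against 27.4% of all genes), 3 higher and 1 lower. In limma 0 of the 12 passed. Of 7 measured B cell markers 5 lay at or above the median of all probe sets. Between the groups 1 of the 7 lay above 0, with a median difference of -0.15. Their groups overlapped for 5 and were apart and lower for 2 (15% of all genes), and 0 passed in limma. At or above the median were, of 8 T cell markers 4, of 5 monocyte and macrophage markers 2 and of 6 plasmacytoid dendritic cell markers 4. Of the last, TCF4, SPIB, IL3RA and LILRA4 lay above the median, and GZMB and CLEC4C, with CLEC4C at 3.24 to 3.69, below it. The 18S ribosomal RNA controls averaged 11.88 and 11.67 in the control arrays and 12.42 and 12.23 after knockdown, with the groups apart. The part of these markers and of the ribosomal signal in the differences below was not tested.

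Most of the promoters found for these genes carry the letters that the interferon factor is known to bind. A window of 300 bases, 250 of them before the transcription start, was found for 33 of the 41 genes in RefSeq, assembly GRCh38.p14, some with several starts. The ISRE core searched for, GAAA and a second GAAA with any 2 bases between them, on either strand and with overlapping matches allowed, was present in 24 of these 33 genes (72.7%), against 4.38% of the 27305 genes with a window. By window the counts were 29 of 47 (61.7%) against 3.57% of 35116. The core of the gamma-activated site bound by STAT dimers, TTCNNNGAA on either strand, was present in 10 of the 33 genes (30.3%) against 9.38%, and 7 genes had both. A match describes letters in the window and not a site in use. Genes with no window were DHX58, OAS2, MX2, TRIM22, OASL, USP18, IFIT2 and IFITM2.

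The stretches below were chosen from genes with an ISRE match that carry some of the results that follow. Other genes that carry results, among them SAMD9L, XAF1, OAS1 and IFI35, have windows without the core and are not shown. Each is written 5′ to 3′ on the strand of its gene, with ISRE matches in capitals and 30 bases on either side.
ISG15 (chr1:1013354-1013429, plus strand): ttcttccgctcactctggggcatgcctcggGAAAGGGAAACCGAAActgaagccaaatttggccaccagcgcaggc
IFIT1 (chr10:89392477-89392559, plus strand): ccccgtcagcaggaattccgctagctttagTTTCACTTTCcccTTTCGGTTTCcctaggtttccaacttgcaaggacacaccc
IFIT5 (chr10:89414493-89414603, plus strand): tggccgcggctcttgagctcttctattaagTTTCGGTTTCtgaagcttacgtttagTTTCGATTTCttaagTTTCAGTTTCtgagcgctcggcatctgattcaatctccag
IFITM3 (chr11:320856-320942, minus strand): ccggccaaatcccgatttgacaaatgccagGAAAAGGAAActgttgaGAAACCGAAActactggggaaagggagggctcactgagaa
DTX3L (chr3:122564302-122564371, plus strand): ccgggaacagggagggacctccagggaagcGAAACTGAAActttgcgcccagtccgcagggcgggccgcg
IFI44 (chr1:78649741-78649810, plus strand): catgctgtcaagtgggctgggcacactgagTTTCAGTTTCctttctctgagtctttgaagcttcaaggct
PLSCR1 (chr3:146544647-146544716, minus strand): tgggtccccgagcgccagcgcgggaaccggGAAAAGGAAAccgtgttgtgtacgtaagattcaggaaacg
SAMD9 (chr7:93118076-93118145, minus strand): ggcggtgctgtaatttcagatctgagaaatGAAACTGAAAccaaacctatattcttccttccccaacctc
In ISG15 the 2 matches overlap, and IFIT5 has 3 matches that begin 45, 19 and 4 bases before its start, the last running past it. The DTX3L match begins 6 bases before the start, and its window shares 137 bases with a window of PARP9, which is read from the opposite strand.

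In the control cells the members spanned most of the range of the arrays. Non-silencing means ran from 3.25 for IFI44L to 11.06 for IFITM1, with a median of 6.66. Of the 41 genes 30 (73.2%) lay at or above the median of all probe sets, and 5 (12.2%) lay below the lower quartile of 4.09. Over all genes, each by its brightest probe set, these shares were 63.9% and 15.3%. Means above 10 belonged to 5 genes (12.2%, against 11.1% of all genes), IFITM1, IFITM2, ADAR, ISG15 and BST2. Probe sets differ in how strongly they bind, so a brighter gene here need not have more transcript.

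**Figure D1:**
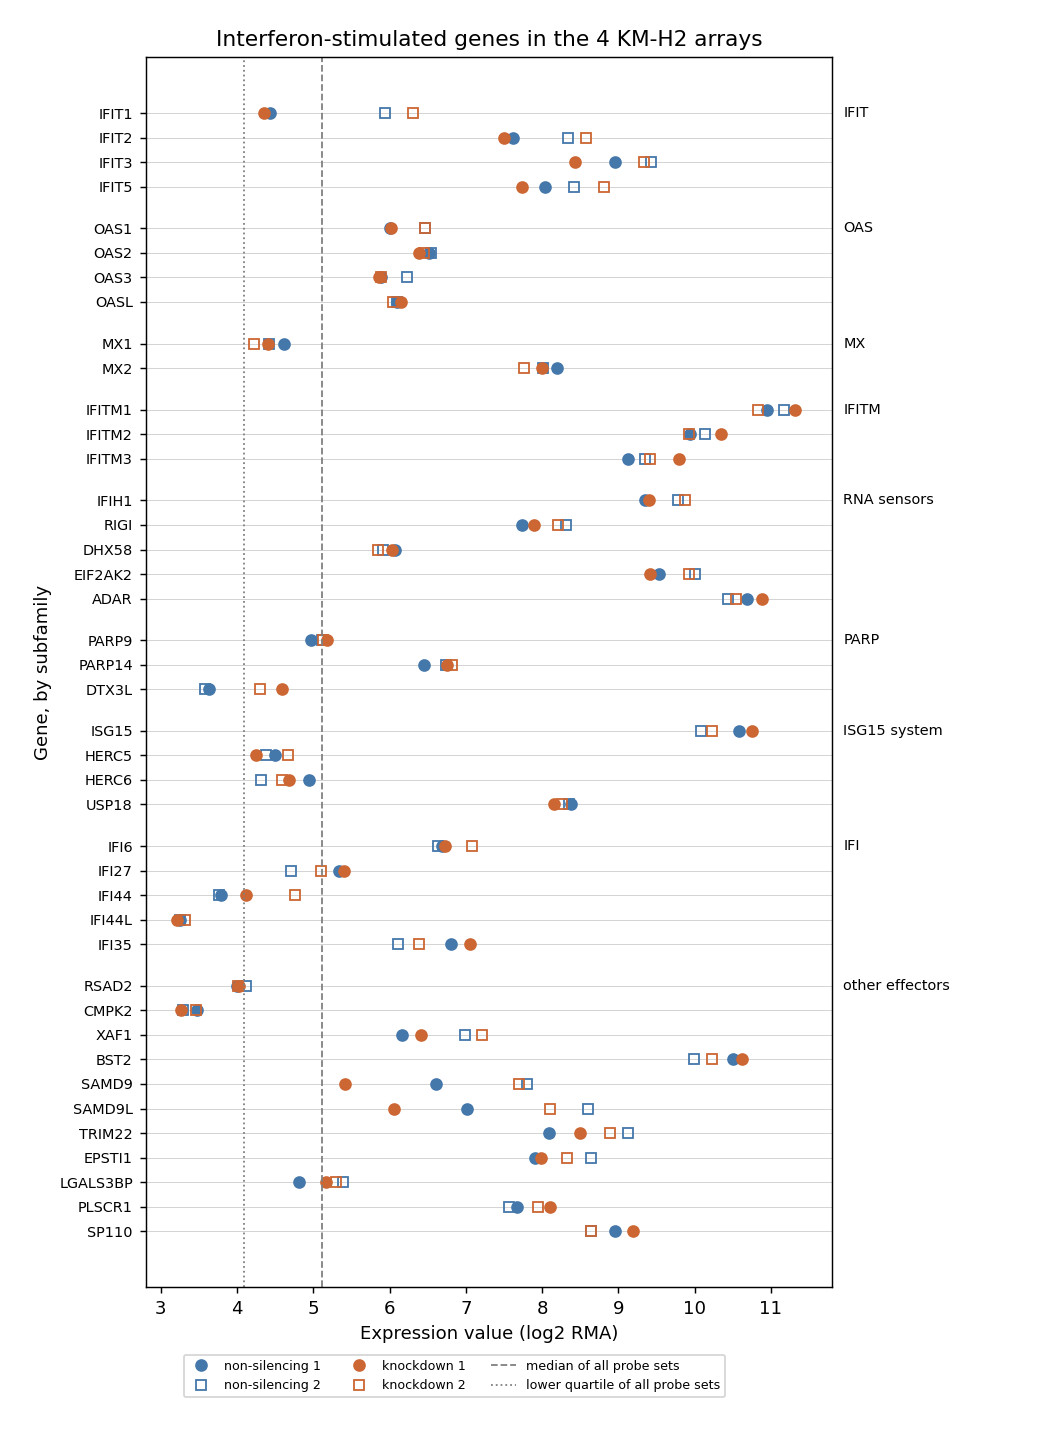
Log2 RMA value of each of the 41 genes (rows, by subfamily) in the 4 arrays (filled circles are arrays numbered 1, open squares arrays numbered 2, blue non-silencing, orange knockdown), with the median and lower quartile of all probe sets as dashed and dotted lines. For IFIT1, SAMD9 and SAMD9L the squares lie apart from the circles in both colours, while for DTX3L the orange symbols at 4.58 and 4.30 lie above the blue ones at 3.64 and 3.58.

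No member passed the test between knockdown and control cells. The differences of group means, knockdown minus non-silencing on the log2 scale, ran from -0.73 for SAMD9L to 0.83 for DTX3L, and 0 of 41 genes reached a 2-fold difference (0.592% of all genes did). Above 0 lay 28 of 41 genes (68.3%), against 48.2% of all genes. As given above, 11 of the 12 Hodgkin markers also lay above 0, 8 of the 12 with overlapping groups. The 18S signal was higher in knockdown, and the part of either was not tested. The median was 0.049, against -0.0066 over all genes, and was 0.052 for array pair 1 (knockdown array 1 minus control array 1) and 0.0067 for array pair 2. Without non-silencing array 1 the median was -0.094, and without knockdown array 2 it was -0.048.

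In limma 0 of 41 genes had an adjusted p under 0.05, as did 0% of all 19775 genes. At an unadjusted limma p under 0.05 there were 3 of 41 (7.32%), against 2.57% of all genes. These were DTX3L, IFI44 and PLSCR1, all higher in knockdown (1.47% of all genes), and 0 were lower (1.11% of all genes). An unmoderated linear model also called 0. The groups were apart, with both knockdown values above or both below the 2 control values, for 11 of 41 genes (26.8%), close to the 27.4% of all genes. Of these 7 were higher in knockdown (12.4% of all genes) and 4 lower (15% of all genes). The sign was the same within both array numbers for 25 genes, with 15 above 0 (27.8% of all genes) and 10 below (29.8% of all genes), and opposite for 16.

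**Figure D2:**
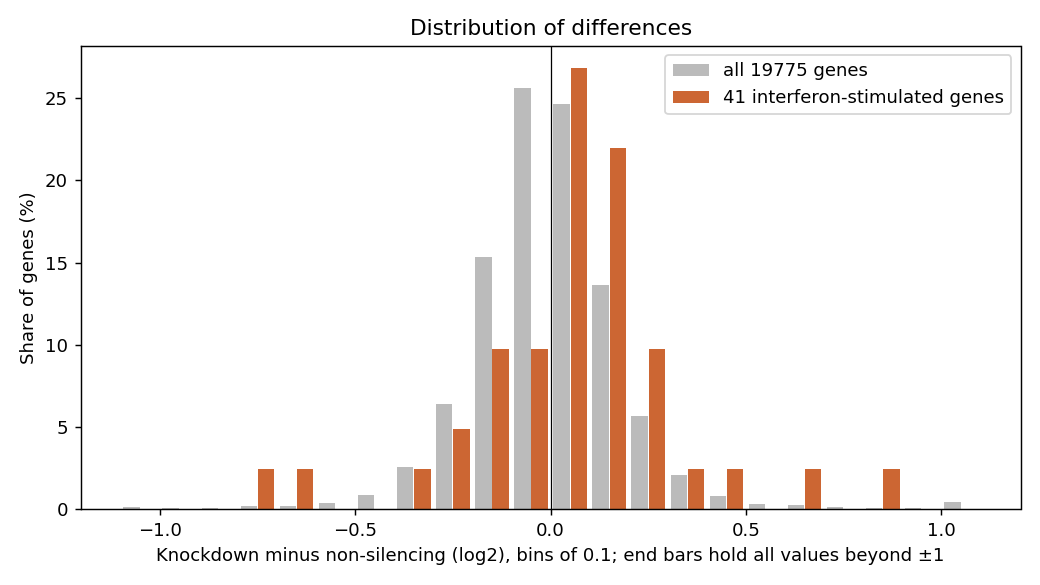
Share of genes (%) in bins of 0.1 of the log2 difference knockdown minus non-silencing, for all genes (grey) and for the 41 members (orange), with the end bars holding all values beyond 1. The members lie between -0.73 and 0.83, and 28 of 41 lie to the right of 0.

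Among sensors of viral RNA the groups overlapped for all 5 genes. IFIH1 encodes MDA5, a helicase that senses long double-stranded RNA. It read 9.35 and 9.78 in the control arrays and 9.40 and 9.87 after knockdown, a difference of 0.069 (SE 0.23, 95% interval from -0.53 to 0.67). RIGI, the helicase that senses short viral RNA ends, differed by 0.031 (SE 0.24) and DHX58, their relative LGP2, by -0.056 (SE 0.14). EIF2AK2, the kinase PKR that halts translation on double-stranded RNA, read 9.53 and 10.002 against 9.41 and 9.93, a difference of -0.099 (SE 0.25). ADAR, which edits adenosines in double-stranded RNA, differed by 0.15 (SE 0.18). For IFIH1, RIGI and EIF2AK2 the arrays numbered 2 were the higher ones in both groups, and for DHX58 and ADAR the lower ones.

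The ISG15 system attaches a ubiquitin-like protein to others. ISG15 itself read 10.58 and 10.08 in the control arrays and 10.75 and 10.23 after knockdown. The groups overlapped, and the difference of 0.16 (SE 0.26) was 0.17 and 0.15 within the array numbers. USP18, which removes ISG15 and restrains the interferon receptor, read 8.37 and 8.35 against 8.15 and 8.26, a difference of -0.15 (SE 0.13). Both knockdown arrays lay below both controls for USP18. The ligase gene HERC5 and its relative HERC6 lay between 4.25 and 4.94 in all arrays, with differences of 0.023 and 0.0087 and opposite signs within the array numbers.

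The IFIT proteins bind viral RNA ends and block translation, and their 4 genes lie close together. Their groups overlapped throughout, with differences from -0.31 to 0.14. IFIT1 read 4.43 and 5.93 in the control arrays and 4.35 and 6.31 after knockdown. IFIT2 read 7.62 and 8.33 against 7.497 and 8.576, and IFIT5 8.03 and 8.42 against 7.74 and 8.81. In these 3 genes the lower value of each group came from array 1. IFIT3 read 8.96 and 9.43 against 8.44 and 9.34, a difference of -0.31 (SE 0.34) with an interval from -1.18 to 0.57. Within the array numbers IFIT1, IFIT2 and IFIT5 had opposite signs, below 0 for array pair 1 and above 0 for array pair 2.

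The oligoadenylate synthetases activate RNase L, which degrades RNA. OAS1 was nearly level, with 6.01 and 6.46 against 6.02 and 6.47. OAS2 read 6.51 and 6.54 against 6.39 and 6.45, a difference of -0.11 (SE 0.12) with the groups apart, and its other probe sets differed by -0.14 and -0.47. OAS3 differed by -0.19 (SE 0.16), with overlapping groups. OASL, a relative that enhances RIG-I signalling, differed by 0.0039 (SE 0.13), and its other probe set by -0.15.

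The MX genes encode dynamin-like GTPases that trap viral capsids, and both were lower in the knockdown arrays without passing the test. MX1 read 4.62 and 4.42 in the control arrays and 4.40 and 4.22 after knockdown, a difference of -0.21 (SE 0.15). MX2 read 8.19 and 8.01 against 7.99 and 7.76, a difference of -0.22 (SE 0.15). For both genes the groups were apart by a narrow gap. Within the array numbers the differences were -0.22 and -0.20 for MX1 and -0.20 and -0.25 for MX2. The 2 genes are next to each other on chromosome 21.

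The IFITM proteins keep enveloped viruses from fusing with cell membranes. IFITM3 read 9.12 and 9.35 in the control arrays and 9.80 and 9.41 after knockdown. The groups were apart and the difference was 0.37 (SE 0.19, 95% interval from -0.11 to 0.84), but it was 0.67 for array pair 1 and 0.064 for array pair 2. IFITM1 read 10.95 and 11.17 against 11.32 and 10.83, and IFITM2 9.94 and 10.13 against 10.35 and 9.92, both with overlapping groups. Knockdown array 1 was the highest array for all 3 genes. The genes are close relatives on chromosome 11, and the suffix of the probe sets of IFITM2 and IFITM3 marks probes that may bind related transcripts, so their values are not independent.

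Of the 9 subfamilies, that of PARP14, PARP9 and DTX3L was the only 1 with the groups apart and higher in knockdown for every member. Over all genes 12.4% were apart and higher, and for PARP9 and PARP14 the gap was narrow. PARP9 and PARP14 belong to the poly-ADP-ribose polymerases, and DTX3L is the ubiquitin ligase that partners PARP9. DTX3L read 3.64 and 3.58 in the control arrays and 4.58 and 4.30 after knockdown, a difference of 0.83 (SE 0.15, 95% interval from 0.44 to 1.22), or 1.78-fold. Its limma adjusted p over all genes was 0.985, and the difference ranged from 0.69 to 0.97 without 1 array. DTX3L has 1 probe set, whose control values lie below the lower quartile, where RMA compresses differences. PARP9 read 4.96 and 5.12 against 5.18 and 5.12, a difference of 0.11 (SE 0.13) that was only 0.0067 between the arrays numbered 2. Its other, dimmer probe set read 4.37 and 4.24 against 5.002 and 4.611, a difference of 0.50. PARP14 read 6.45 and 6.73 against 6.75 and 6.81, a difference of 0.19 (SE 0.15), while its dimmer probe set differed by -0.16. No coding gene lies between PARP9 and DTX3L in the RefSeq order.

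The 5 genes named IFI, for interferon-induced, all lay above 0, with differences from 0.0065 to 0.66. IFI44 read 3.78 and 3.77 in the control arrays and 4.12 and 4.76 after knockdown, a difference of 0.66 (SE 0.24, 95% interval from 0.06 to 1.27). The groups were apart, but the difference was 0.33 for array pair 1 and 0.99 for array pair 2. Its second, dimmer probe set differed by 0.42. As for DTX3L, the control values of both probe sets lie below the lower quartile of 4.09, where RMA compresses differences. Its neighbour IFI44L stayed between 3.21 and 3.32 in all arrays, with a difference of 0.0065 (SE 0.13). IFI6, a mitochondrial and endoplasmic reticulum protein, read 6.69 and 6.64 against 6.73 and 7.08, a difference of 0.24 (SE 0.16). IFI35, a binding partner of NMI, read 6.80 and 6.11 against 7.05 and 6.39, and IFI27 differed by 0.23 (SE 0.25), both with overlapping groups.

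Among the other effectors PLSCR1, a phospholipid scramblase that limits virus entry, was the 1 gene with an unadjusted limma p under 0.05. It read 7.67 and 7.56 in the control arrays and 8.10 and 7.95 after knockdown, a difference of 0.41 (SE 0.13, 95% interval from 0.065 to 0.75). The groups were apart and the difference was 0.43 and 0.39 within the array numbers. Of its dimmer probe sets 1 differed by 0.18 and the other, at 2.24 to 2.56, by -0.0099.

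SAMD9 and SAMD9L, adjacent genes on chromosome 7 that restrict poxviruses, had the lowest differences of the 41 genes. SAMD9L read 7.01 and 8.60 in the control arrays and 6.06 and 8.10 after knockdown, a difference of -0.73 (SE 0.82). SAMD9 read 6.61 and 7.80 against 5.42 and 7.69, a difference of -0.65 (SE 0.82). The groups overlapped for both, and each array numbered 2 lay above each array numbered 1. Within the array numbers SAMD9L differed by -0.96 and -0.50 and SAMD9 by -1.19 and -0.11. The other probe sets of SAMD9L differed by -0.46 and -0.41, and that of SAMD9 by -0.23.

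The remaining effectors had overlapping groups. The radical-SAM enzyme viperin, encoded by RSAD2, and its neighbour CMPK2, a nucleotide kinase gene, lay between 3.27 and 4.12 and differed by -0.047 and -0.017. BST2, which encodes the tetherin that holds virions on the cell surface, differed by 0.17 (SE 0.24), and XAF1, a pro-apoptotic gene, by 0.24 (SE 0.38). TRIM22, a ubiquitin ligase gene, EPSTI1, LGALS3BP, whose product binds galectins, and SP110, a nuclear body gene, differed by 0.089, -0.12, 0.13 and 0.12, with SEs from 0.22 to 0.37.

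**Figure D3:**
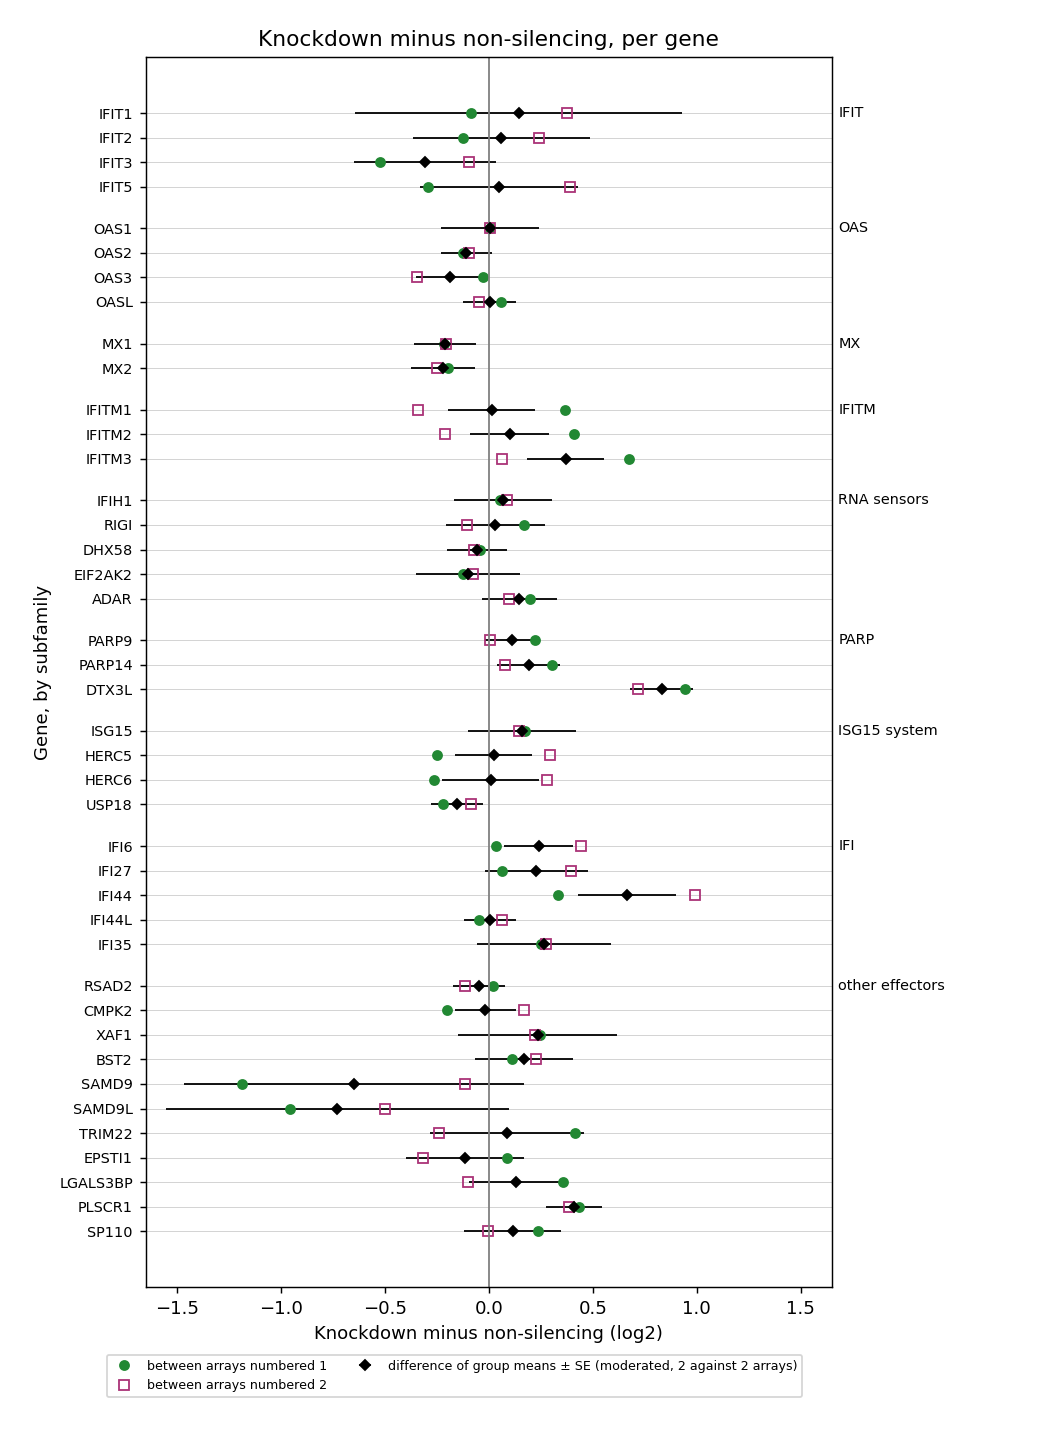
Log2 difference knockdown minus non-silencing for each of the 41 genes (rows, by subfamily), as the difference of group means with its SE (black diamonds with bars), between the arrays numbered 1 (green circles) and between the arrays numbered 2 (open purple squares). DTX3L (0.95 and 0.72) and PLSCR1 (0.43 and 0.39) have both symbols to the right of 0, MX1 and MX2 both to the left, and IFIT1, IFIT2 and IFIT5 have them on opposite sides.

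For many of these genes the arrays of a group differed more than the groups did. The difference between array numbers exceeded that between groups for 29 of 41 genes (70.7%), against 62.8% of all genes. In 24 of the 29 the number difference ran the same way in both groups, and in 5, among them IFITM1, IFITM2 and HERC5, it ran in opposite ways. In those 24 of 41 genes (58.5%, against 52.7% of all genes) both arrays numbered 2 lay on 1 side of both arrays numbered 1, higher for 15 (23.5% of all genes) and lower for 9 (29.2% of all genes). In a limma fit with terms for group and number, added after the values were seen, 12 of 41 genes passed for number (29.3%), against 9.85% of all genes. All 12 lay among the 30 members with a control mean at or above the median signal (40%), against 14.5% of all genes at or above it. Of the 12 genes 9 were higher in the arrays numbered 2 (5.41% of all genes) and 3 lower (4.45% of all genes). The largest were SAMD9L, at 1.81 higher in number 2 (SE 0.14, limma adjusted p = 0.00782), SAMD9 at 1.73 and IFIT1 at 1.73 (SE 0.14, limma adjusted p = 0.0079). For SAMD9L the difference was 1.58 in the control arrays and 2.04 in the knockdown arrays, and its other probe sets gave 1.63 and 1.47.

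IFIT2 (0.90), XAF1 (0.81), IFIT3 (0.69), EIF2AK2 (0.49), OAS1 (0.45) and IFIH1 (0.45) were also higher in number 2. IFI35 (-0.67), ISG15 (-0.51) and BST2 (-0.45) were lower. IFIH1's dimmer probe sets went the other way, by -0.42 and -0.22, and the second probe set of OAS1 gave 0.0025. The other probe sets of EIF2AK2 gave 0.031 and 0.076. With an unmoderated model 0 of 41 genes passed, and without the group term 3 of 41. With the mean of all probe sets 8 of the 12 still passed, and among 32 genes with probe sets of no special suffix 7 passed. Counts over all genes for the unmoderated model and without the group term are given under processing. For the averaging and suffix settings they are not given here, so those counts are not set against a background.

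Beta-actin has probe sets at both ends of its transcript, and their difference (3′ minus 5′, log2) grows with RNA breakdown or incomplete copying. It was 1.31 in control array 1 and 1.33 in knockdown array 1, against 0.972 and 0.969 in the arrays numbered 2. For GAPDH the same measure differed less between numbers. It was 0.32 in control array 1 and 0.29 in knockdown array 1, against 0.21 and 0.26 in the arrays numbered 2. The part of these end differences in the number differences was not tested, and the labels tie a number to no batch.

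**Figure D4:**
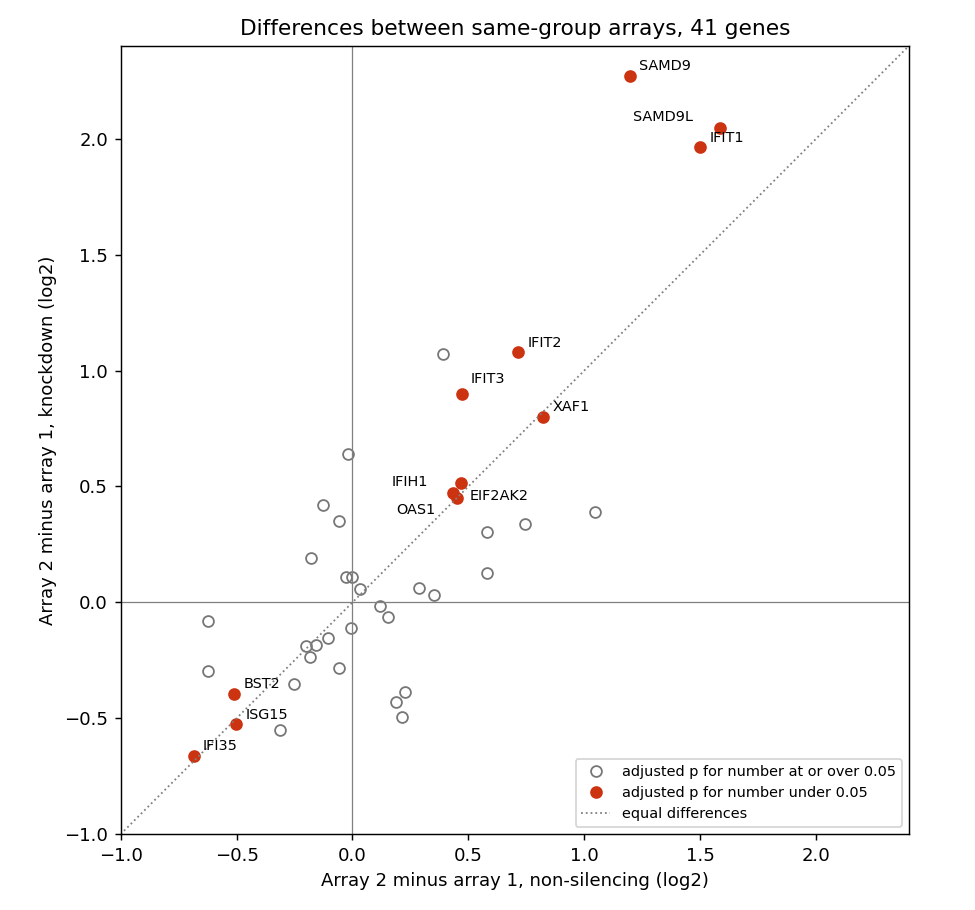
Array 2 minus array 1 (log2) in the non-silencing group (horizontal axis) and in the knockdown group (vertical axis) for the 41 genes, with the 12 genes past an adjusted p of 0.05 for number filled and named. SAMD9, SAMD9L and IFIT1 lie at the upper right, above 1 on both axes, and IFI35, ISG15 and BST2 at the lower left.

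Genes with an ISRE core in the window had a median knockdown difference of 0.091 (24 genes, 17 above 0), and the 9 genes with windows but no core had 0.031 (7 above 0). Of those 24 genes 7 passed for array number, and of the 9 without the core 4, where 9.85% of all genes passed. SAMD9L, XAF1, OAS1 and IFI35 are the 4.

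Upstream of these genes, 6 measured genes had a median difference of 0.042 and 0 passed in limma. They were genes of the receptor and its kinases, with IRF9 and IRF7, and no STAT gene was among them. IRF7, a factor that drives interferon genes, lies outside the complex of STAT proteins and IRF9 described above. It was the 1 gene of the 6 with an unadjusted limma p under 0.05 (2.57% of all genes), and is named for that. It read 5.05 and 5.02 in the control arrays and 5.31 and 5.43 after knockdown, a difference of 0.34 (SE 0.13) with the groups apart. IRF9 read 6.14 and 6.32 in the control arrays and 7.20 and 6.22 in the knockdown arrays, so that its difference of 0.48 (SE 0.34) came from knockdown array 1. TYK2 differed by 0.08 (SE 0.15), IFNAR1, a receptor chain, by -0.022 (SE 0.19) and JAK1 by -0.041 (SE 0.17). Interferon ligand genes had a median of -0.049 over 17 genes, and 16 of them lay below the median of all probe sets in the control arrays. IFNA17 was the exception, at 6.11 and 5.94 against 5.46 and 5.90, from a probe set that may bind related interferon transcripts. The groups were apart for 7 of the 17 (41.2%, against 27.4% of all genes), 5 lower (15% of all genes) and 2 higher (12.4%). IFNA14 was the 1 ligand gene with an unadjusted limma p under 0.05, lower in knockdown (1.11% of all genes). It differed by -0.47 (SE 0.16) with the groups apart. IFNB1 read between 3.36 and 3.77.

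Of 18 measured sensing adaptors 0 passed in limma, with a median of 0.053. TRAF3, an adaptor for interferon induction, read 9.54 and 9.52 against 9.79 and 9.74, a difference of 0.24 (SE 0.12). AIM2, a sensor of cytosolic DNA, differed by 0.39 (SE 0.35), CGAS, another such sensor, by -0.13 (SE 0.15) and TLR7, an endosomal RNA receptor, by -0.54 (SE 0.50). TLR7 and AIM2 overlapped between groups. Of 16 other antiviral genes, IRF7 again among them, 0 passed after adjustment and 8 lay above 0, with a median of 0.013. At an unadjusted limma p under 0.05 there were 3 of 16, IRF7, PARP12 and SAMHD1, all higher in knockdown (1.47% of all genes). PARP12, of the same polymerase family, read 7.27 and 7.39 against 7.68 and 7.89, a difference of 0.46 (SE 0.14). PARP10, also of that family, differed by 0.048 (SE 0.16) with overlapping groups. SAMHD1, a nucleotide hydrolase that limits retroviruses, differed by 0.36 (SE 0.13), NMI by -0.16 (SE 0.16) and RTP4 by -0.38 (SE 0.22). For PARP12 and SAMHD1 the groups were apart and higher in knockdown, and for RTP4 and IFNA17 apart and lower.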

How the data were processed

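The deposited values are log2 expression per probe set from RMA, per the submitters' processing notes. RMA software and build: not given in the sources used here. This step gives arrays nearly equal distributions and compresses dim values. RNA came from columns, per the labels' protocols. Values were used as deposited. Array medians were 5.10 to 5.12, and no counts or depth exist for arrays. Of 54675 probe sets, 41097 had 1 gene symbol, giving 19775 genes; each gene took its brightest probe set by mean over the 4 arrays. Groups and array numbers came from titles. Knockdown minus non-silencing was fitted in limma 3.58.1 (R 4.3.3, lmFit, eBayes) without covariates, two-sided, Benjamini-Hochberg over all genes, threshold 0.05. SEs and 95% intervals use limma's moderated variances, and a number fit was added. The procedure was tested on simulated data. Members and lists were chosen with earlier results of these data known. Named were all members and the beta-actin and GAPDH end controls. From each pathway list the 2 highest and 2 lowest differences were named, among genes whose control mean reached the median signal. IFNB1, IFNA14, IRF7, PARP10 and the dendritic cell markers were named after their values were seen. Promoter windows were searched in Python 3.11.15. Alternatives covered normalization, centring, probe set choice, a dim filter, variance models, a replicate block and leaving out arrays. Some listed genes are not analysed here.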

Additional observations from a re-analysis of the deposited data

How the results depend on the processing

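0 of the 41 genes passed for knockdown under any of the 13 alternatives. Over all genes 1 passed with an intensity trend, 72 with the replicate block, and 0 to 1 without 1 array. Same-numbered arrays deviated together (correlation across 19775 genes 0.648), but with 2 arrays a group this does not settle whether numbers pair the arrays. With the replicate block the limma adjusted p was 0.0714 for DTX3L and 0.173 for SAMD9L, and PTPN1 passed at 0.0251; the block changed no member's call. Without 1 array the counts of genes above 0 ran from 19 to 25 and the median from -0.094 to 0.082. The counts of genes with groups apart ran from 22 to 31, since fewer arrays overlap less often. The matching shares over all genes are not given here, so these counts are no result about the members. With the mean of all probe sets the median was 0.082. In the main setting it was 0.0067 within number 2. Without probe sets of special suffix 17 of 32 genes lay above 0 (median 0.0068). With dim genes left out (mean under the median signal) 7 of 32 had the groups apart. By the control mean alone 7 of 30 (23.3%) were apart, close to the 24.1% of all genes at or above that signal.

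For array number, members past the threshold were 7 without special suffixes, 19 with a trend, 0 in an unmoderated model and 3 without the group term. Over all genes these were 3743, 0 and 533 for the last 3 settings and 3048 with the dim filter. The count over all genes without special suffixes is not given here. Leaving out an array left no residual degrees of freedom for number and was not run.

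The sign changed with quantile normalization for OAS1 (-0.019), OASL (-0.0061), RIGI (-0.0024) and IFI44L (-0.0027), with centring for CMPK2 (0.00096), and on averaging all probe sets for OASL (-0.075), EIF2AK2 (0.021), HERC6 (-0.015) and RSAD2 (0.054). With the most variable probe set it changed for OASL (-0.15), PARP14 (-0.16) and RSAD2 (0.15), and without special suffixes for OASL (-0.15) and PLSCR1 (-0.0099). These signs follow the probe set used; for the scalings the cause was not tested. Without 1 array 12 genes kept their sign and 29 did not: IFIT1 ran from -0.84 to 1.13, IFIT2 from -0.48 to 0.60, IFIT3 from -0.76 to 0.14, IFIT5 from -0.49 to 0.58, OAS1 from -0.22 to 0.23, OASL from -0.052 to 0.060, IFITM1 from -0.23 to 0.26, IFITM2 from -0.11 to 0.31, IFIH1 from -0.17 to 0.30, RIGI from -0.26 to 0.32, DHX58 from -0.15 to 0.036, EIF2AK2 from -0.36 to 0.16, ADAR from -0.029 to 0.32, ISG15 from -0.10 to 0.42 and HERC5 from -0.19 to 0.23. HERC6 ran from -0.30 to 0.32, IFI27 from -0.082 to 0.54, IFI44L from -0.048 to 0.061, IFI35 from -0.079 to 0.61, RSAD2 from -0.11 to 0.014, CMPK2 from -0.11 to 0.078, XAF1 from -0.18 to 0.65, BST2 from -0.087 to 0.42, SAMD9 from -1.79 to 0.49, SAMD9L from -1.75 to 0.29, TRIM22 from -0.43 to 0.61, EPSTI1 from -0.49 to 0.26, LGALS3BP from -0.16 to 0.42 and SP110 from -0.16 to 0.39. The genes that kept it were OAS2, OAS3, MX1, MX2, IFITM3, PARP9, PARP14, DTX3L, USP18, IFI6, IFI44 and PLSCR1.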
